A study of Mus musculus with 37 samples.

Results

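Lin28b, the 3 Igf2bp genes, Hmga2, Arid3a and Mycn are genes of the fetal Lin28 and let-7 circuit, taken here as a fixed list of 7 names and followed in lungs of fetal and newborn mice. Each gene was read by a probe set that carries exactly 1 gene symbol, and where a gene had several, the brightest on average was taken. By that rule 6 of the 7 genes were measured, out of 19938 genes with such a probe set. Igf2bp2 had no probe set of its own and is not analysed here.

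LIN28 proteins bind the precursors of the let-7 family and block their maturation, so that let-7 stays low in early embryonic tissue. As LIN28 declines, mature let-7 accumulates and represses messages that carry its sites, among them Hmga2, the Igf2bp genes, Mycn, Arid3a and Lin28b itself, which closes a feedback loop. In mammals the circuit is known as a timer of growth and of the switch from fetal to adult programs.

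The arrays measured RNA of the whole right lung of C57BL/6J (B6) and A/J mice, 2 inbred strains, of which B6 are born a day earlier. Lungs of both strains were taken daily from E15.5 to E18.5 and at PN0, the day of birth, and A/J lungs also at E19.5 and E20.5, with no treatment and no engineered allele. Neighbouring ages are a day apart, except that A/J lungs of E20.5 and PN0 were taken a few hours apart, around birth. Each of the 12 groups had 3 replicates, and each replicate was a litter of which 3 male lungs were pooled, so that differences between littermates were not seen. In whole lung, fewer cells of a type and less RNA per cell cannot be told apart. The values are log2 RMA values, in which 1 unit is a 2-fold difference, and they compare groups for 1 gene, not genes with each other.

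The tissue label was checked against 10 lung markers, among them Sftpb and Ager, of which 10 rose by PN0 in B6 lungs and 10 in A/J lungs (limma, adjusted p under 0.05). Markers of other tissues varied too. The mean of 7 liver markers stood 1.42 to 3.23 log2 units above that of the other replicates of the group in 4 replicates, which were replicate 1 of B6 at E15.5 and at E16.5, replicate 1 of A/J at E15.5 and replicate 2 of A/J at E19.5. Heart markers were higher at PN0 in 7 of 8 genes in both strains, B cell markers in 4 of 7 genes in both, and markers of squamous esophageal epithelium in 2 of 8 genes in both. Of 6 erythroid genes, 1 was higher and 2 were lower in B6 lungs at PN0, and 3 were higher and 2 lower in A/J lungs. Of 7 thymus genes, 1 was lower in B6 lungs, and 1 was higher and 1 lower in A/J lungs. Over all probe sets 24.4% were higher and 26.6% lower at PN0 in B6 lungs, and 25.2% and 25.8% in A/J lungs. The esophageal and thymus counts were near or below these shares. Single replicates nonetheless differed in the mean of the 8 esophageal markers. In A/J lungs it was 5.84, 7.30 and 5.88 at E19.5, 6.03, 7.31 and 5.98 at PN0, and 6.05 to 7.27 at E20.5. In B6 lungs it was 5.94 to 7.12 at E17.5. No liver gene passed in either strain, with 0 in B6 and 1 in A/J at an unadjusted p under 0.05.

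The let-7 family is what joins these genes, and its mature forms are shown because they carry the same target-pairing seed. The 9 mature forms are printed 5′ to 3′ from RefSeq, with the seed, bases 2 to 8, in capitals.
let-7a-5p: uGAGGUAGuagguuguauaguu
let-7b-5p: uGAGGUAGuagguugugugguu
let-7c-5p: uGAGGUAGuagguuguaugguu
let-7d-5p: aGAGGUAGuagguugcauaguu
let-7e-5p: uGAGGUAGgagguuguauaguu
let-7f-5p: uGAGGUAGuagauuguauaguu
let-7g-5p: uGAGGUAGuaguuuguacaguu
let-7i-5p: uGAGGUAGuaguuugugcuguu
miR-98-5p: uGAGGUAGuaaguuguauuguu
All 9 share the seed GAGGUAG, and they differ only outside it. The loci are scattered (GRCm38.p6): let-7a-1 (chr13:48538239-48538260), let-7f-1 (chr13:48537889-48537910) and let-7d (chr13:48536078-48536099) lie together on the minus strand, whereas let-7b (chr15:85707325-85707346) and let-7e (chr17:17830366-17830387) lie on the plus strand elsewhere. The messages' own let-7 sites were not analysed here.

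Lin28b, the RNA-binding inhibitor of let-7 maturation (chr10:45376617-45486314), was already dim at the first age studied. In B6 lungs its log2 values were 5.01, 4.93 and 4.78 at E15.5, 4.77, 4.79 and 4.75 at E16.5, 4.82, 5.05 and 4.77 at E17.5, 4.68, 4.84 and 4.63 at E18.5, and 4.76, 4.82 and 4.74 at PN0. A/J lungs gave 5.37, 5.02 and 5.12 at E15.5, 4.85, 4.81 and 4.82 at E16.5, 4.89, 4.84 and 4.99 at E17.5, 4.86, 4.99 and 4.72 at E18.5, 4.84, 4.78 and 4.90 at E19.5, 4.71, 4.82 and 4.67 at E20.5, and 4.78, 4.70 and 5.01 at PN0. In every group its mean lay between the percentiles 15 and 22.1 of all probe sets with 1 symbol. The only A/J group that stood apart was E15.5, whose lowest replicate, 5.02, lay just above the highest at any later age, 5.01 at PN0. From E15.5 to PN0 the difference in B6 lungs was -0.13 (SE 0.091, adjusted p = 0.241), with overlapping replicates. By PN0 Lin28b fell by 0.34 in A/J lungs (SE 0.091, adjusted p = 0.00213, limma). Its difference from E15.5 was already -0.34 at E16.5 and was -0.26 at E17.5. The highest A/J value, 5.37, was that of replicate 1 at E15.5, in which liver markers averaged 7.64, against 5.42 and 5.62 in the other replicates, and heart markers 9.52, against 7.46 and 7.47. The highest B6 value, 5.05, was that of replicate 2 at E17.5. Without the 4 replicates with high liver markers, the A/J difference at PN0 was -0.24 (adjusted p = 0.0462), that at E20.5 was -0.34 (adjusted p = 0.00521), and those at E16.5 to E19.5, between -0.24 and -0.16, did not pass (adjusted p of 0.0795 or more).

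Lin28a, the paralog that shares this activity in mouse embryos, did not pass at PN0 in either strain. Its means were 6.20 at PN0 and 6.43 at E15.5 in B6 lungs (adjusted p = 0.253), and 6.23 at PN0 and 6.24 at E15.5 in A/J lungs (adjusted p = 0.979).

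**Figure D1:**
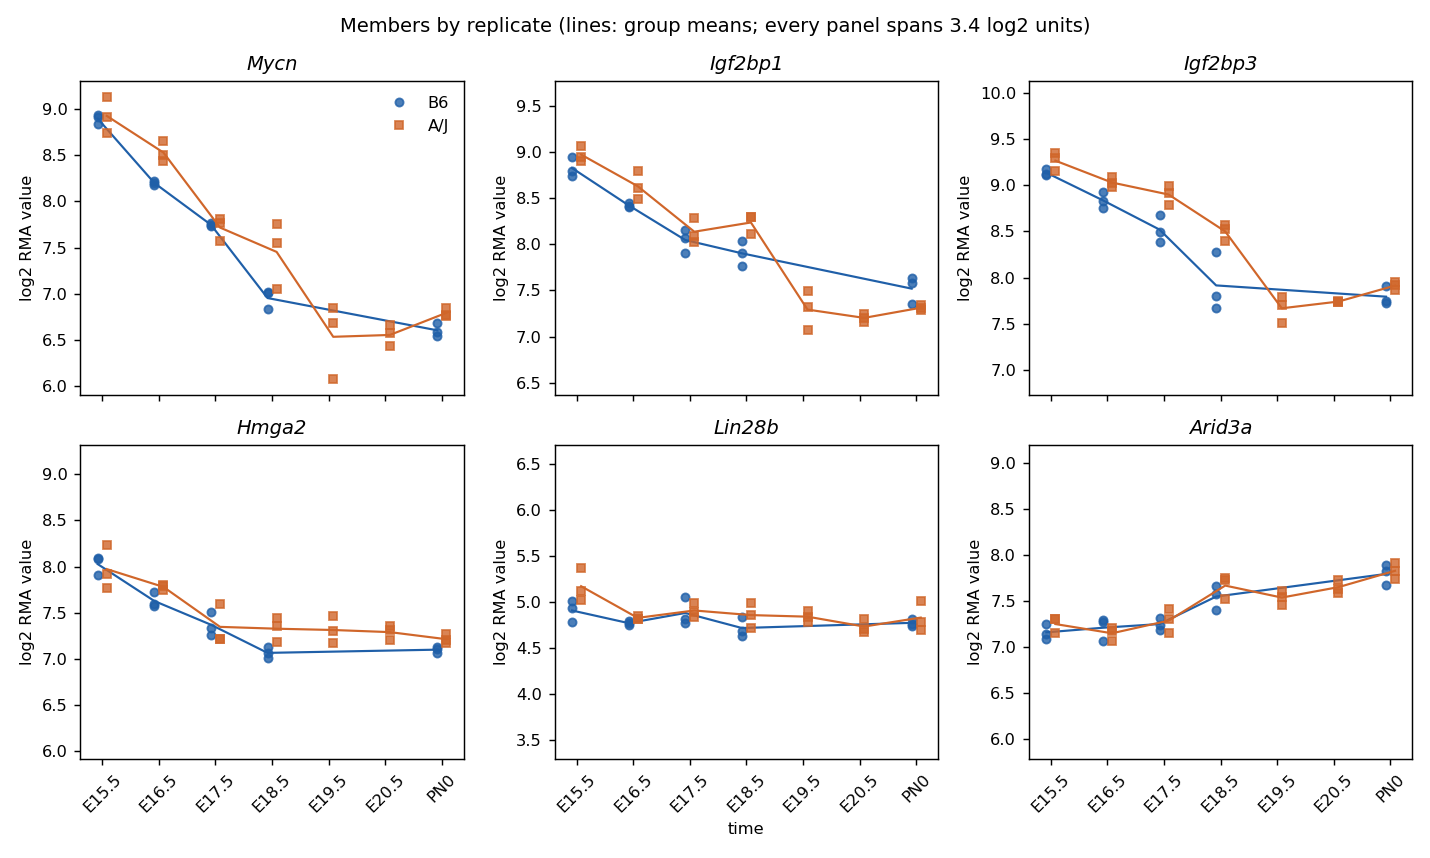
Log2 RMA value of each of the 6 measured genes against time, 1 point per replicate (3 per group), with lines through the group means; B6 are circles and A/J squares, and every panel spans the same log2 range. Mycn, Igf2bp1, Igf2bp3 and Hmga2 descend in both strains, Lin28b is near 4.8 from E16.5 on, and Arid3a ascends from E17.5.

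At PN0, 4 genes were lower and 1 was higher than at E15.5 in B6 lungs, and 5 were lower and 1 was higher in A/J lungs. Over all 21789 probe sets tested, 26.6% were lower and 24.4% higher in B6, and 25.8% were lower and 25.2% higher in A/J (51% in either direction in each). The median difference of the 6 genes was -1.12 in B6 lungs and -1.06 in A/J lungs, beside -0.00 and -0.04 over all probe sets tested. A stricter rule for change over time asked for an adjusted p below 0.01 in limma's F test and for group means at least 2-fold apart. By it Mycn, Igf2bp1 and Igf2bp3 passed in both strains, while 14.3% of probe sets passed in B6 and 17.8% in A/J.

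The first calls came a day after E15.5. At E16.5 Igf2bp1, Igf2bp3, Hmga2 and Mycn were already lower in B6 lungs (4 of 6, with 7.52% of all probe sets lower and 6.84% higher), and Lin28b and Igf2bp1 in A/J lungs (2 of 6, with 1.97% lower and 4.69% higher). Without the 4 replicates with high liver markers, 2 of 6 passed at E16.5 in B6 lungs, Igf2bp1 (adjusted p = 0.0217) and Mycn (0.00126), while Igf2bp3 (0.105) and Hmga2 (0.0654) did not. In A/J lungs Mycn alone then passed at E16.5 (-0.49, adjusted p = 0.0311), and neither Lin28b (0.239) nor Igf2bp1 (0.162) did. By E17.5 the same 4 genes were lower in B6 lungs (21.9% lower, 18.2% higher and 40.1% in either direction) and 5 genes in A/J lungs (20.6% lower, 17% higher and 37.6% in either direction). From E18.5 on Arid3a was higher as well, so that 4 were lower and 1 higher in B6 lungs (24% and 22.1% of all probe sets). In A/J lungs all 6 genes passed from E18.5 on, Arid3a higher and the others lower, where 49.8% of probe sets passed in either direction on E18.5, 49.8% on E19.5 and 51.4% on E20.5.

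Mycn, a MYC family transcription factor that keeps distal lung progenitors dividing (chr12:12936093-12941836), had the largest change of the 6 genes. In B6 lungs its log2 values were 8.84, 8.91 and 8.94 at E15.5, 8.22, 8.18 and 8.20 at E16.5, 7.77, 7.73 and 7.74 at E17.5, 6.83, 7.01 and 7.02 at E18.5, and 6.54, 6.68 and 6.59 at PN0. The A/J values were 8.74, 9.13 and 8.91 at E15.5, 8.44, 8.50 and 8.65 at E16.5, 7.81, 7.77 and 7.57 at E17.5, 7.55, 7.76 and 7.05 at E18.5, 6.68, 6.08 and 6.84 at E19.5, 6.66, 6.43 and 6.57 at E20.5, and 6.76, 6.85 and 6.77 at PN0. No B6 replicate of any age overlapped one of the next, so that the 5 ages separate completely. At PN0 Mycn was 4.9-fold lower than at E15.5 in B6 lungs (log2 -2.29, SE 0.14, adjusted p = 5.5e-15) and 4.39-fold lower in A/J lungs (log2 -2.13, SE 0.14, adjusted p = 2.59e-14).

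Step by step, the fall ran as follows. In B6 lungs the difference from E15.5 was -0.70 at E16.5 (adjusted p = 0.00068), and the next steps were -0.45 to E17.5 (adjusted p = 0.0248), -0.79 to E18.5 (adjusted p = 8.96e-05) and -0.35 to PN0, which did not pass (adjusted p = 0.0635). The A/J step to E17.5 was -0.81 (adjusted p = 3.24e-05), that to E18.5 was -0.26 and did not pass (adjusted p = 0.154), and that to E19.5 was -0.92 (adjusted p = 1.24e-05). After E19.5 the A/J values showed no further drop, with differences of 0.02 to E20.5 and 0.24 to PN0 that did not pass. The last of these steps spans only a few hours. The lowest A/J value, 6.08, was that of replicate 2 at E19.5, one of those with high liver markers.

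Since Mycn was compared in time with the cell cycle genes, its promoter was searched for the motif of E2F factors, which drive replication genes at the G1 to S transition. The 300 bases from 250 before to 50 after the RefSeq start (GRCm38.p6, chr12:12941787-12942086, minus strand) are printed 5′ to 3′, with matches to TTTCGCGC and TTTGGCGC on either strand in capitals; the first run of capitals holds 1 match of each, overlapping.
Mycn promoter: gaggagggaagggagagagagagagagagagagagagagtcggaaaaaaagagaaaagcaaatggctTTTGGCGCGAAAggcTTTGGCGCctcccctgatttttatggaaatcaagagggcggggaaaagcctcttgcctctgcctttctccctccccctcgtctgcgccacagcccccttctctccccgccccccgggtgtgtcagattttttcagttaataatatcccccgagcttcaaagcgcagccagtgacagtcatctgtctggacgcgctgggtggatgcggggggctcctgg
At least 1 of these motifs was present in 0.813% of all 32851 promoters in the table and in 10 of 53 promoters of the cell cycle genes (18.9%). Of the 4 measured genes with a promoter in the table (Mycn, Igf2bp3, Lin28b and Hmga2), Mycn alone had a match. In all 5 motifs were searched, and 2 others were more frequent among cell cycle promoters than overall. CCAAT was present in 71.7% of the cell cycle promoters and 37.4% of all promoters, and in those of Igf2bp3 and Lin28b but not of Mycn or Hmga2. TTTGAA was present in 39.6% of the cell cycle promoters and 17.9% of all promoters, and in those of Igf2bp3 and Mycn. A match is a run of letters in this window and no evidence of binding.

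Igf2bp1, an oncofetal protein that binds messages such as those of Igf2 and Myc (chr11:95957163-96005944), fell in both strains. In B6 lungs its log2 values were 8.74, 8.79 and 8.95 at E15.5, 8.40, 8.45 and 8.42 at E16.5, 8.07, 7.91 and 8.16 at E17.5, 8.04, 7.91 and 7.76 at E18.5, and 7.35, 7.58 and 7.63 at PN0. A/J lungs gave 9.07, 8.95 and 8.90 at E15.5, 8.49, 8.61 and 8.79 at E16.5, 8.29, 8.09 and 8.03 at E17.5, 8.30, 8.11 and 8.30 at E18.5, 7.49, 7.07 and 7.32 at E19.5, 7.20, 7.25 and 7.16 at E20.5, and 7.34, 7.29 and 7.31 at PN0. The A/J values at E17.5 and E18.5 overlap, and all later A/J values lie at 7.49 or below. At PN0 Igf2bp1 was 2.47-fold lower than at E15.5 in B6 lungs (log2 -1.31, SE 0.10, adjusted p = 9.91e-13) and 3.16-fold lower in A/J lungs (log2 -1.66, SE 0.10, adjusted p = 3.44e-15). The largest single step was from E18.5 to E19.5 in A/J lungs, at -0.94 (SE 0.10, adjusted p = 4.17e-08). In B6 lungs the last step, from E18.5 to PN0, was still a fall, at -0.38 (adjusted p = 0.00385).

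A second probe set of Igf2bp1 with a lower level also fell by PN0, with differences of -0.89 in B6 lungs (adjusted p = 1.63e-05) and -1.16 in A/J lungs (adjusted p = 2.15e-07). It differed in course: in B6 lungs its mean was 6.09 at E15.5, 5.13 at E17.5 and 5.20 at PN0, and in A/J lungs it was higher at E18.5 than at E17.5, at 6.02 and 5.57 (adjusted p = 0.0344).

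Igf2bp3, the paralog with the same oncofetal pattern (chr6:49085218-49215469), also fell in both, in A/J lungs mainly after E17.5. In B6 lungs its log2 values were 9.12, 9.18 and 9.11 at E15.5, 8.93, 8.75 and 8.83 at E16.5, 8.49, 8.39 and 8.68 at E17.5, 7.67, 8.275 and 7.80 at E18.5, and 7.91, 7.72 and 7.75 at PN0. The A/J values were 9.35, 9.30 and 9.15 at E15.5, 9.02, 8.98 and 9.09 at E16.5, 8.92, 8.99 and 8.79 at E17.5, 8.57, 8.53 and 8.40 at E18.5, 7.70, 7.51 and 7.79 at E19.5, 7.75, 7.73 and 7.74 at E20.5, and 7.92, 7.95 and 7.87 at PN0. Every A/J value up to E18.5 stood at 8.40 or above, and every later one stood at 7.95 or below. At PN0 it was 2.54-fold lower than at E15.5 in B6 lungs (log2 -1.34, SE 0.10, adjusted p = 1.3e-12) and 2.56-fold lower in A/J lungs (log2 -1.35, SE 0.10, adjusted p = 1.04e-12). The main step in B6 lungs was that from E17.5 to E18.5 (log2 -0.61, adjusted p = 6.51e-05). The A/J steps were -0.40 to E18.5 (adjusted p = 0.00408) and -0.83 to E19.5 (adjusted p = 6.08e-07), while that to E17.5, -0.13, did not pass.

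The Igf2bp3 promoter is shown for the E-box CACGTG, the palindromic motif that MYC family factors bind, which it holds 2 times close to the start used in the RefSeq table. That start lies inside the gene's printed span, not at its 5′ end, and no other start was searched. Its 300 bases (GRCm38.p6, chr6:49214905-49215204, minus strand) are printed 5′ to 3′ with the E-boxes in capitals.
Igf2bp3 promoter: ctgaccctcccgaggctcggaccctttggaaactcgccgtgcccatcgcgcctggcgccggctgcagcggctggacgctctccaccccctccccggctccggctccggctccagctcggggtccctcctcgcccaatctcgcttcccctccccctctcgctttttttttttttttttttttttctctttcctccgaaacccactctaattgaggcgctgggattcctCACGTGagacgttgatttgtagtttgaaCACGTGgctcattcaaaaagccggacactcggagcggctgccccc
An E-box was present in 7.15% of all promoters, in 3 of the 53 cell cycle promoters (5.66%) and, of the 4 measured genes with a promoter, in those of Igf2bp3 and Lin28b. Igf2bp3 fell by PN0 in both strains, and Lin28b passed in A/J lungs alone. Mycn and Hmga2, without an E-box in this window, fell in both strains too. An E-box match is no evidence of binding, and a link to Mycn was not tested.

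Hmga2, a chromatin protein of undifferentiated mesenchyme and a classical let-7 target (chr10:120361268-120476469), fell to a plateau before birth. In B6 lungs its log2 values were 8.09, 7.91 and 8.08 at E15.5, 7.59, 7.57 and 7.72 at E16.5, 7.26, 7.34 and 7.51 at E17.5, 7.13, 7.005 and 7.06 at E18.5, and 7.13, 7.06 and 7.11 at PN0. A/J lungs gave 8.23, 7.77 and 7.92 at E15.5, 7.75, 7.80 and 7.79 at E16.5, 7.22, 7.22 and 7.60 at E17.5, 7.36, 7.44 and 7.18 at E18.5, 7.30, 7.47 and 7.17 at E19.5, 7.36, 7.31 and 7.20 at E20.5, and 7.27, 7.20 and 7.17 at PN0. No step passed after E18.5 in B6 lungs or after E17.5 in A/J lungs, where the later groups overlap. At PN0 Hmga2 was 1.9-fold lower than at E15.5 in B6 lungs (log2 -0.93, SE 0.10, adjusted p = 3.22e-09) and 1.69-fold lower in A/J lungs (log2 -0.76, SE 0.10, adjusted p = 1.53e-07). The step between E16.5 and E17.5 was -0.43 in A/J lungs (adjusted p = 0.00142), and none of the 4 later steps, between -0.08 and -0.01, passed.

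Arid3a, a transcription factor of B cell and myeloid lineages that is repressed by let-7 in mouse hematopoietic progenitors (chr10:79927043-79955018), rose instead. In B6 lungs its log2 values were 7.09, 7.14 and 7.25 at E15.5, 7.07, 7.29 and 7.27 at E16.5, 7.32, 7.24 and 7.19 at E17.5, 7.66, 7.405 and 7.58 at E18.5, and 7.82, 7.67 and 7.89 at PN0. The A/J values were 7.30, 7.15 and 7.30 at E15.5, 7.07, 7.21 and 7.17 at E16.5, 7.41, 7.15 and 7.30 at E17.5, 7.52, 7.73 and 7.75 at E18.5, 7.46, 7.54 and 7.61 at E19.5, 7.59, 7.63 and 7.73 at E20.5, and 7.74, 7.83 and 7.91 at PN0. Values up to E17.5 overlap in each strain, and those at PN0 exceed all of them. At PN0 Arid3a was 1.55-fold higher than at E15.5 in B6 lungs (log2 0.63, SE 0.086, adjusted p = 1.57e-07) and 1.49-fold higher in A/J lungs (log2 0.58, SE 0.086, adjusted p = 8.28e-07). The first step that passed was that to E18.5 in both strains (log2 0.30 in B6, adjusted p = 0.0105, and 0.38 in A/J, adjusted p = 0.00123), and in B6 lungs that to PN0 passed too (0.245, adjusted p = 0.0318). Of 7 B cell markers, 4 were also higher at PN0 in each strain, where 24.4% of all probe sets were higher in B6 and 25.2% in A/J. Vpreb1, Igll1 and Pax5 passed in neither strain. The mean of the 7 markers over replicates was 6.11 to 6.33 at PN0 and 5.73 to 5.96 at E15.5 in B6 lungs, and 6.32 to 6.49 at PN0 and 5.75 to 5.98 at E15.5 in A/J lungs. The part of these markers in the Arid3a values was not tested.

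Over all neighbouring ages from E16.5 on, 17 steps of the 6 genes passed, and a difference between the strains in single steps was not tested. In B6 lungs 3 of the 6 genes fell from E16.5 to E17.5 (9.16% of all probe sets were lower, 6.49% higher and 15.7% either), 3 fell and Arid3a rose to E18.5 (11% lower and 12.7% higher), and Igf2bp1 fell and Arid3a rose to PN0 (14.4% lower and 12.5% higher). Among A/J lungs 3 fell to E17.5 (15.9% lower, 12.7% higher and 28.7% either), Igf2bp3 alone fell and Arid3a rose to E18.5 (4.56% lower and 26.8% higher), and 3 fell to E19.5 (23.7% lower and 4.56% higher). None passed to E20.5 (0.707% in either direction; 0 genes at an unadjusted p under 0.05) or, over a few hours, from there to PN0 (20.1%; 1 gene at an unadjusted p under 0.05). The A/J arrays of E18.5 were shifted as a whole: over all probe sets the median difference was 0.12 from E17.5 to E18.5 and -0.10 from E18.5 to E19.5. With each array centred on its median, the A/J steps to E18.5 were -0.01 for Igf2bp1, -0.37 for Mycn (adjusted p = 0.056) and -0.51 for Igf2bp3, and those to E19.5 were -0.88, -0.85 and -0.77.

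The timing of loss was set against 59 cell cycle genes, 28 of DNA replication (such as Mcm3, Mcm5, Pola1 and Uhrf1) and 31 of G2 and mitosis (such as Bub1, Kif11, Top2a and Kif2c). All 59 were lower at PN0 than at E15.5 in both strains. Over all probe sets 26.6% were lower in B6 and 25.8% in A/J. The lists were chosen with earlier results of these data known, so this fall is a reference and not a finding. The difference of the mean of the 59 genes was -2.46 in B6 lungs and -2.84 in A/J lungs. In B6 lungs 14.6% of that fall was made by E16.5, 46.1% by E17.5 and 78.9% by E18.5. The A/J share was 5.13% by E16.5, 39.1% by E17.5, 48.6% by E18.5, 88.2% by E19.5 and 105% by E20.5. The 2 lists parted in A/J lungs, where the replication mean had made 52.8% of its fall by E17.5 and the mitosis mean 29.2%.

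The day at which 50% of a gene's fall was made, read by linear interpolation between group means, orders the genes in time. In B6 lungs Hmga2 reached it at embryonic day 16.75 (16.58 to 16.82 when 1 replicate was left out), Igf2bp1 at 17.16 (17.05 to 17.31), Mycn at 17.49 (17.46 to 17.52) and Igf2bp3 at 17.59 (17.44 to 17.68). The replication mean reached it at 17.41 (17.33 to 17.51) and the mitosis mean at 17.77 (17.71 to 17.83). By these ranges Hmga2 and Igf2bp1 lay before the replication mean, and Mycn and Igf2bp3 lay between the 2 means, with ranges that overlap that of the replication mean. The ranges are not error intervals, and in the test below against the replication genes no gene passed in B6 lungs. By E18.5 Igf2bp1 had made 70.7% of its fall, less than 52 of the 59 cell cycle genes. Of the 59 cell cycle genes, 57 reached it later than Hmga2, 52 later than Igf2bp1, 33 later than Mycn and 31 later than Igf2bp3. The Igf2bp1 day is that of its brighter probe set, and the order depends on that choice. Its second probe set had passed 50% by E16.5, at -0.62 of a PN0 difference of -0.89, and so before Hmga2.

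Of the 4 genes that fell in both strains, each read by the probe set taken, Hmga2 was again the first in A/J lungs. It reached 50% at embryonic day 16.93 (16.81 to 17.08), before all 59 cell cycle genes, of which the earliest was at 17.09. Mycn followed at 17.32 (17.27 to 17.41), with 49 cell cycle genes later, and Igf2bp1 at 17.49, with 42 later. The Igf2bp1 value moved between 17.35 and 18.62 when 1 replicate was left out; its mean lay near 50% at both E17.5 and E18.5 (50.4% and 44.4%). The second probe set of Igf2bp1 stood at -0.16 at E16.5 and -0.84 at E17.5, of a PN0 difference of -1.16. Its day was not computed. Igf2bp3 came last, at 18.27 (18.20 to 18.39), with 35 cell cycle genes later. By E17.5 it had made 27.1% of its fall, less than 44 of the 59 cell cycle genes. The replication mean reached 50% at 17.44 (17.41 to 17.48) and the mitosis mean at 18.73 (18.67 to 18.78). By its group means Lin28b was earlier than all of these, at 16.00 (15.90 to 16.13), but its fall was small and its probe set dim. Without the replicates with high liver markers, its difference from E15.5 was -0.24 at E16.5 and did not pass (limma, adjusted p = 0.239). In that fit Lin28b passed only at E20.5 and PN0, so a fall completed by E16.5 is not established.

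**Figure D2:**
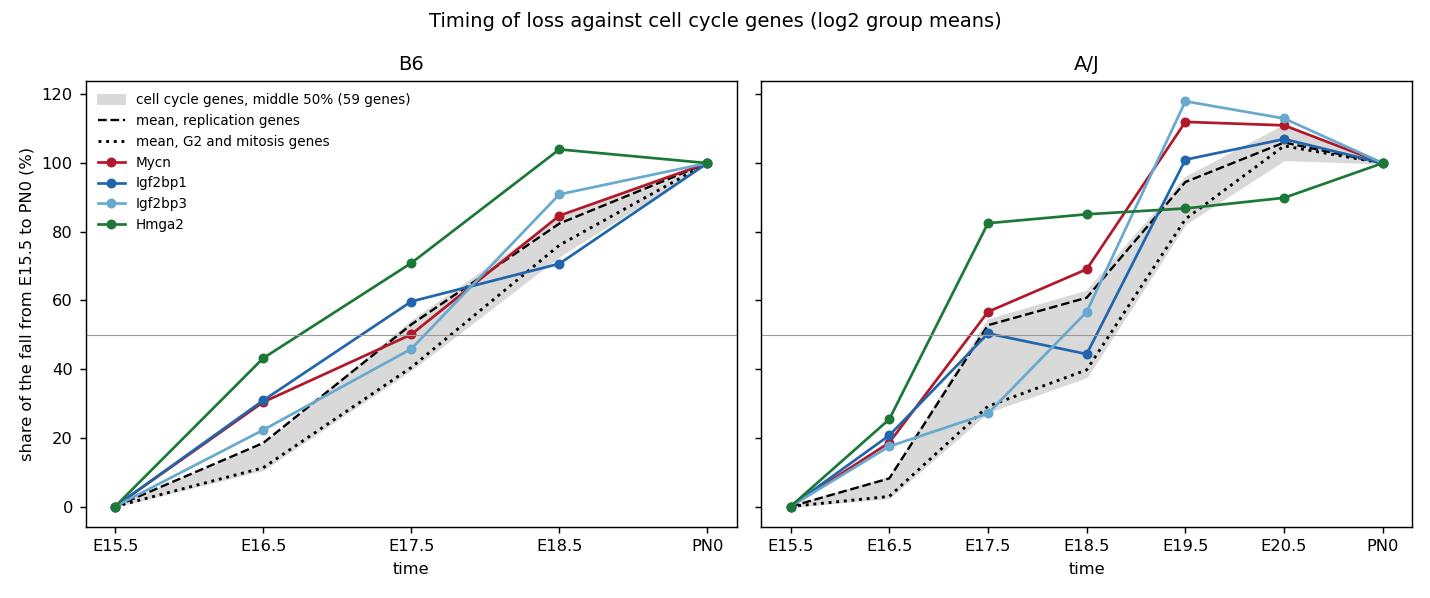
Share of the fall from E15.5 to PN0 (percent, from log2 group means of 3 replicates) against time, for B6 (left) and A/J (right); lines with points are single genes, the dashed and dotted lines the means of the replication and the G2 and mitosis genes, and the grey band the middle 50% of the 59 cell cycle genes. Hmga2 runs above the band to E18.5 in both strains, and in A/J Mycn and Igf2bp3 pass 100% at E19.5, at 112% and 118%.

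To test the lead, the change of each falling gene by a given age was set against the share of its own PN0 change that the cell cycle mean had made by then, in limma's fit over all probe sets, so that a negative value is a fall ahead of the cell cycle genes. The share was taken as fixed, so the SE leaves out its error, and the cell cycle genes were measured on the same arrays. Among all probe sets a negative value can also be a late rise, and the shares called lower in each test hold both kinds.

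Of the falling genes, 7 such values passed in A/J lungs, all negative. Hmga2 stood at -0.33 at E17.5 (SE 0.09, adjusted p = 0.00475) and -0.28 at E18.5 (SE 0.089, adjusted p = 0.0135). Mycn stood at -0.38 at E17.5 (SE 0.122, adjusted p = 0.0177), -0.44 a day later (SE 0.121, adjusted p = 0.00465) and -0.51 at E19.5 (SE 0.132, adjusted p = 0.00486). Igf2bp3 stood at -0.41 at E19.5 (SE 0.098, adjusted p = 0.00271), and Lin28b at -0.33 at E16.5 (SE 0.089, adjusted p = 0.0278). Over all probe sets the share called lower was 1.17% for the E16.5 test, 16.7% for E17.5, 9.7% for E18.5 and 12.5% for E19.5. The brighter probe set of Igf2bp1 did not pass at any age, with values between -0.26 and 0.07, whereas its second probe set stood at -0.39 at E17.5 and passed (SE 0.14, adjusted p = 0.0349). The Lin28b value did not pass without replicate 1 of A/J at E15.5 (-0.23, adjusted p = 0.258) or without any of the 3 replicates of E16.5 (adjusted p of 0.0853, 0.0772 and 0.0794). At E17.5 the Hmga2 call was lost without replicate 1 or 2 of that age (adjusted p = 0.067 and 0.0645), and the Mycn call without replicate 2 of E15.5 (0.0532) or replicate 2 or 3 of E17.5 (0.0501 and 0.0634). At E18.5 the Hmga2 call was lost without replicate 3 of that age (0.0689). The other 3 calls, both later ones of Mycn and that of Igf2bp3, passed with any 1 replicate left out. At E19.5 the difference from E15.5 was beyond that at PN0, at -2.39 against -2.13 for Mycn and -1.60 against -1.35 for Igf2bp3. Part of their E19.5 timing values is thus this distance to PN0 and not an earlier loss. Arid3a, which rises, had negative values at E17.5 in B6 lungs, -0.20 (adjusted p = 0.0361), and at E19.5 in A/J lungs, -0.22 (adjusted p = 0.0474), meaning a later course than that of the cell cycle mean. These Arid3a values were not recomputed with a replicate left out.

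These calls depended on the cell cycle list. Against the replication genes alone, Hmga2 stood at -0.23 at E17.5 (adjusted p = 0.0542) and Mycn at -0.08 (adjusted p = 0.689), and 3 of the 7 values passed, those of Lin28b at E16.5 and of Igf2bp3 and Mycn at E19.5. Both Igf2bp genes were then behind at 1 age each, Igf2bp3 at 0.35 at E17.5 (adjusted p = 0.00314) and Igf2bp1 at 0.27 at E18.5 (adjusted p = 0.0147). Against the G2 and mitosis genes alone 10 values passed in A/J lungs, among them Mycn at -0.59 at E17.5 (adjusted p = 0.000378), -0.62 a day later (adjusted p = 0.00011) and -0.61 at E19.5 (adjusted p = 0.000732), and Hmga2 at -0.41 at E17.5 (adjusted p = 0.000758) and -0.34 a day later (adjusted p = 0.00243). With the fall ended at E18.5, Hmga2 and Mycn stood at -0.11 and -0.03 at E17.5 (adjusted p = 0.439 and 0.911).

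Among the probe sets taken for the falling genes, 1 value passed in B6 lungs, that of Hmga2 at E17.5, -0.23 (SE 0.089, adjusted p = 0.0473), where 17.2% of all probe sets were called lower. It did not pass in 9 of 15 other settings, or in 7 of 9 fits that left out 1 replicate (adjusted p up to 0.147). The second probe set of Igf2bp1 passed at 2 ages, with -0.49 at E16.5 (SE 0.15, adjusted p = 0.0359), where 3.91% of all probe sets were called lower, and -0.55 at E17.5 (SE 0.139, adjusted p = 0.00254). These values of the second probe set were not recomputed with a replicate left out. Mycn stood at -0.36 at E16.5 (adjusted p = 0.0875), the brighter Igf2bp1 probe set at -0.21 (adjusted p = 0.183), and Igf2bp3 at 0.00 at E17.5 (adjusted p = 0.986). Against the G2 and mitosis genes alone 4 values passed, those of Mycn at E16.5 (-0.44), Igf2bp1 at E17.5 (-0.25) and Hmga2 at E17.5 and E18.5 (-0.28 and -0.26), and against the replication genes alone none did, with adjusted p of 0.139 or more. Whether the lead differs between the strains was not tested.

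Between the strains the genes were compared at each shared age, as B6 minus A/J. At E15.5 none of the 6 passed (2.46% of probe sets did; 1 gene at an unadjusted p under 0.05), nor at E16.5 (8.09%; 2 genes). The second probe set of Igf2bp1 was lower in B6 lungs at E16.5, with means of 5.47 in B6 and 6.25 in A/J lungs (log2 -0.79, SE 0.16, adjusted p = 0.0028), and did not pass at E15.5 (-0.32, adjusted p = 0.463) or E17.5 (-0.45, adjusted p = 0.0664). At E17.5 Igf2bp3 was lower in B6 lungs, at 8.49, 8.39 and 8.68 in B6 lungs and 8.92, 8.99 and 8.79 in A/J lungs (log2 -0.38, SE 0.104, adjusted p = 0.0171; 10.9% of probe sets passed). This call was lost without replicate 1 or 2 of B6 (adjusted p = 0.0548 and 0.106) and without replicate 1 or 2 of A/J at that age (0.0618 and 0.0986).

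At E18.5, 3 of the 6 genes were lower in B6 lungs, where 27.7% of all probe sets were lower and 31.8% passed in either direction. Igf2bp3 was at 7.67, 8.275 and 7.80 in B6 lungs and at 8.57, 8.53 and 8.40 in A/J lungs, 1.5-fold lower in B6 (log2 -0.59, SE 0.104, adjusted p = 0.000137). The 8.275 is the mean of arrays 2 and 2b, at 8.54 and 8.01, and array 2 alone lay within the A/J values. The Igf2bp3 call passed in all 12 alternatives, among them that with array 2b left out. Mycn was at 6.83, 7.01 and 7.02 in B6 lungs and at 7.55, 7.76 and 7.05 in A/J lungs (log2 -0.50, SE 0.14, adjusted p = 0.00753). The groups did not overlap, but the lowest A/J replicate of Mycn lay next to the B6 values. Igf2bp1 was at 8.04, 7.91 and 7.76 in B6 lungs and at 8.30, 8.11 and 8.30 in A/J lungs (log2 -0.33, SE 0.10, adjusted p = 0.0118), and its second probe set was lower in B6 lungs too, at -0.90 (adjusted p = 0.000146). Hmga2 stood at -0.26 (adjusted p = 0.0507, 0.0251 without replicate 3 of A/J and 0.0345 without the replicates with high liver markers), Lin28b at -0.14 and Arid3a at -0.12.

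At E18.5 the median difference between the strains was -0.13 over all probe sets. With arrays centred, the difference was -0.50 for Igf2bp3 (adjusted p = 0.00189), -0.41 for Mycn (adjusted p = 0.0393) and -0.24 for Igf2bp1 (adjusted p = 0.105). The Mycn call, which centring kept, was lost without replicate 2 of A/J (-0.35, adjusted p = 0.0735), and that of Igf2bp1 without replicate 3 of B6 (adjusted p = 0.0718) or replicate 1 of A/J (0.0507). At this age 48 of the 59 cell cycle genes were lower in B6 lungs too. So were 6 of 8 squamous esophageal markers, whose mean was 5.60 to 6.12 in B6 replicates and 6.84 to 7.12 in A/J replicates, and their part in the result was not tested.

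**Figure D3:**
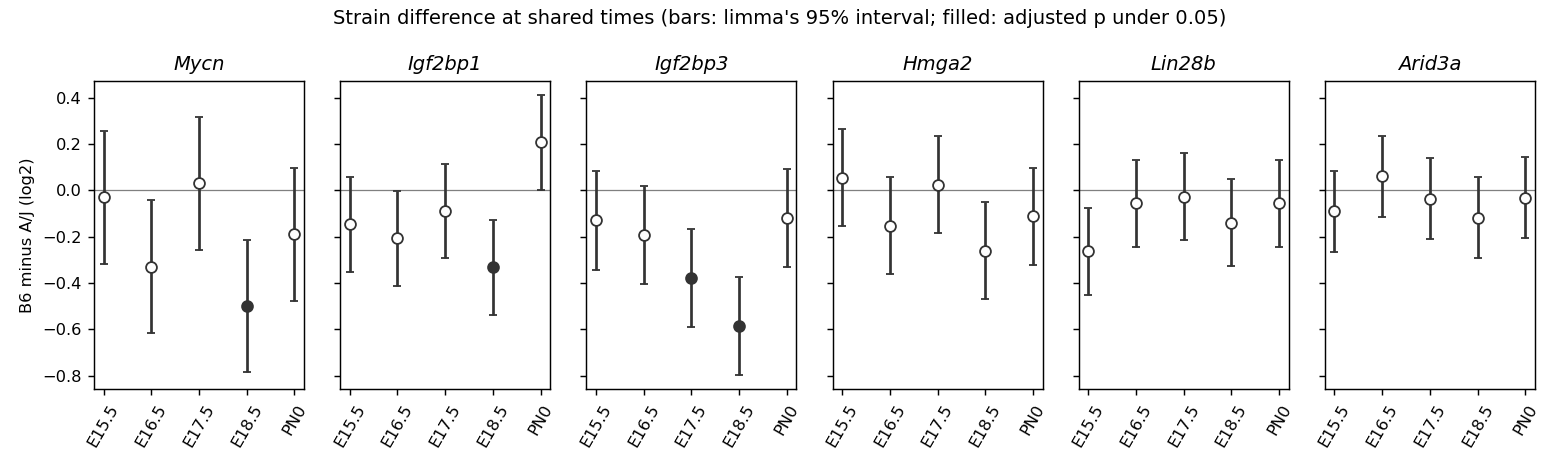
B6 minus A/J difference in log2 value of each gene at the 5 shared ages, with limma's 95% interval from 3 replicates per group; filled points passed an adjusted p of 0.05. The filled points are Mycn, Igf2bp1 and Igf2bp3 at E18.5 and Igf2bp3 at E17.5, all below 0.

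At PN0 none of the 6 passed between the strains (19.9% of probe sets did; 1 gene at an unadjusted p under 0.05, Igf2bp1, at 0.21 with an adjusted p of 0.154), although B6 pups are a day younger at birth. On the day before birth (B6 E18.5 minus A/J E19.5) Igf2bp1 was higher in B6 lungs, at 8.04, 7.91 and 7.76 in B6 and 7.49, 7.07 and 7.32 in A/J lungs (log2 0.61, SE 0.10, adjusted p = 9.87e-05; 9.94% of probe sets passed). Its second probe set did not show this, at -0.02 (adjusted p = 0.97). Mycn stood at 0.42 (adjusted p = 0.0526), Igf2bp3 at 0.25 (adjusted p = 0.138) and Hmga2 at -0.25 (adjusted p = 0.133). Replicate 2 of A/J at E19.5, with high liver markers, had the lowest Igf2bp1, Mycn and Igf2bp3 values of its group. Without the 4 replicates with high liver markers Igf2bp1 stood at 0.50 (adjusted p = 0.00433).

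Whether the change from E15.5 itself differed between the strains was tested for 6 genes at 4 ages. None of the 24 differences passed limma's adjusted p, and 4 had an unadjusted p under 0.05. The nearest was Igf2bp3 at E18.5, with a B6 minus A/J difference of -0.46 in the change (SE 0.147, adjusted p = 0.0586). No probe set passed at E16.5, 0.679% did at E17.5, 6.32% on E18.5 and 5.94% on PN0.

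Of the 12 let-7 loci listed, 10 had a probe set of their own. These read RNA of the locus and do not separate the mature form from its precursor. At PN0 1 locus was lower in B6 lungs and 1 was higher in A/J lungs (51% of all probe sets passed in either direction in each strain), with a median difference of -0.02 in B6 and -0.04 in A/J, beside -0.00 and -0.04 over all probe sets. The locus that passed in A/J lungs was Mirlet7d, at 6.70, 6.98 and 6.81 at PN0 and 5.40, 6.93 and 6.68 at E15.5 (log2 0.49, SE 0.206, adjusted p = 0.046). The locus that passed in B6 lungs was Mirlet7f-1, at 4.87, 5.42 and 5.67 at PN0 and 6.26, 6.18 and 6.21 at E15.5 (log2 -0.90, SE 0.281, adjusted p = 0.00775). Both loci were named after their values were seen. The Mirlet7d ages overlap, and its low value at E15.5, 5.40, was that of replicate 1, which had high liver and heart markers.

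Of 21 measured genes of let-7 processing and silencing, 15 were lower and 2 higher at PN0 in B6 lungs and 14 were lower and 2 higher in A/J lungs, with medians of -0.46 and -0.37. Of all probe sets 26.6% were lower in B6 lungs and 25.8% in A/J lungs. Those that fell included Dgcr8, partner of the nuclear microRNA processor (log2 -0.79 in B6 and -0.84 in A/J), Xpo5, which exports precursors (-1.11 and -0.83), and Tut4, one of the uridylyl transferases that act with LIN28 on let-7 precursors (-0.85 and -0.78). Both that rose were Ago4, an Argonaute protein (0.87 and 1.01), and Tut7, the other such uridylyl transferase (0.55, adjusted p = 2.96e-08, and 0.70, adjusted p = 2.03e-10), which was named after its values were seen. The Ago4 means in B6 lungs were 7.54 at PN0 and 6.67 at E15.5, and in A/J lungs 7.68 and 6.67.

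Among 27 other measured let-7 targets, directions were mixed. At PN0 12 were lower and 7 higher in B6 lungs, and 14 were lower and 6 higher in A/J lungs, with medians of -0.11 and -0.22, while 26.6% of all probe sets were lower and 24.4% higher in B6, and 25.8% lower and 25.2% higher in A/J. The counts of higher targets were near those shares. Myc fell (log2 -1.55 in B6 and -1.37 in A/J), as did Cdc25a, a phosphatase that opens the cell cycle (-1.69 in each), whereas Fas, a death receptor (2.14 and 1.92), and Prdm1, a repressor that drives terminal differentiation (1.26 and 1.84), rose. Of 5 messages known to be bound by IGF2BP proteins, 1 was higher and 1 lower in B6 lungs, and 1 higher and 2 lower in A/J lungs. The counts of 1 were near the shares over all probe sets. Actb and Btrc passed in neither strain, and Mapk4 was lower in A/J lungs alone. Igf2, the fetal growth factor, fell (log2 -0.75 in B6 and -0.84 in A/J), and Cd44, a cell surface receptor, rose (1.52-fold in B6 and 2.15-fold in A/J).

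**Figure D4:**
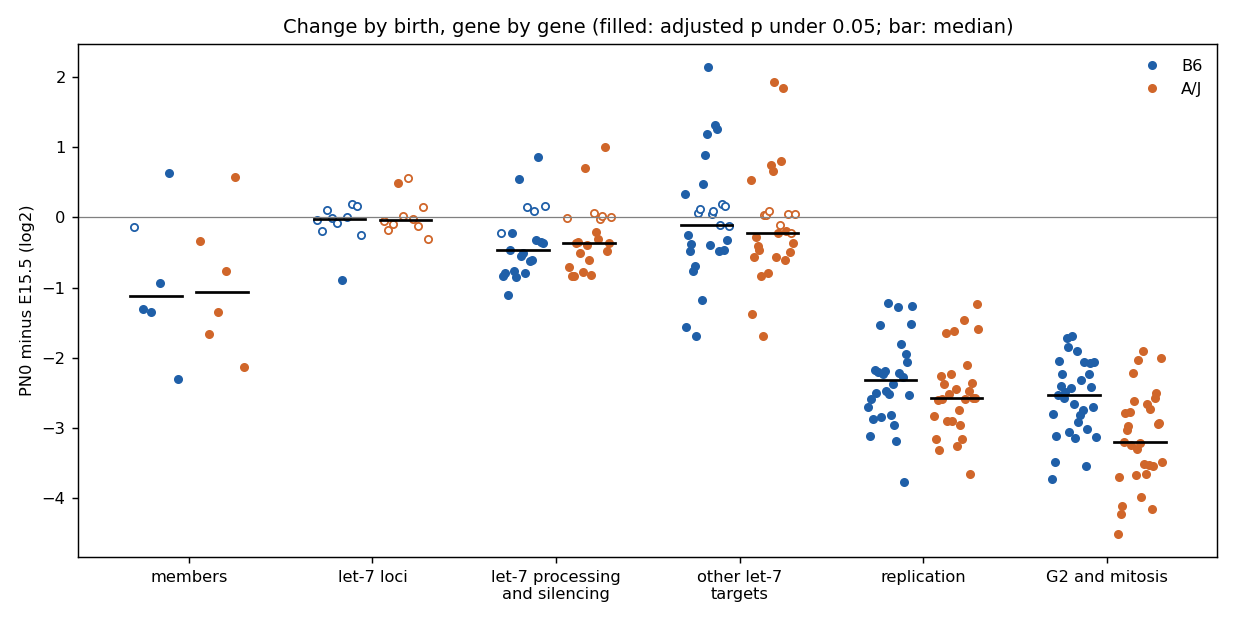
Difference PN0 minus E15.5 (log2) of each gene in 6 lists, with B6 (blue) left of A/J (orange); filled points passed an adjusted p of 0.05 and bars are medians. The let-7 loci centre near 0 (medians -0.02 and -0.04), while all 59 cell cycle genes lie below -1.

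The genes whose profiles were most like those of the 6, by Pearson correlation over the 12 group means, are given as a description, since the groups share ages and arrays. Mycn was nearest to Ahctf1, Mre11a and Nup107 (r = 0.996, 0.996 and 0.995), and 1879 of 19937 genes had r over 0.9 to it. Igf2bp1 was nearest to Bcl11a, Mcph1 and Birc5 (0.988, 0.985 and 0.985), with 1521 genes over 0.9, and Igf2bp3 to Acad9, Edc4 and Htatsf1 (0.99, 0.988 and 0.988), with 1524. Hmga2 was nearest to Slc35f1, Cnmd and Hs6st2 (0.988, 0.98 and 0.977), with 816 genes over 0.9. Arid3a was nearest to Fbxw2, Apcdd1 and Ppp2r5b (0.99, 0.988 and 0.986), with 950. Lin28b had no gene over 0.9, and its nearest were Mcoln3, Rab30 and Fhit (0.862, 0.858 and 0.851).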

How the data were processed

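RNA of whole right lungs was hybridised to Mouse Gene 1.0 ST arrays. The authors deposited log2 values after RMA, made with Affymetrix Expression Console 1.1 per the submitters' processing notes, and these were used unchanged (array medians 6.34 to 6.54). Of the B6 E18.5 arrays, 2 and 2b were averaged as replicate 2, which left 36 replicates of 37 arrays. Of 35556 probe sets, the 21789 with 1 gene symbol were tested with limma 3.58.1 (R 4.3.3), with 1 mean per group, 24 residual and 6.13 prior degrees of freedom, and Benjamini-Hochberg adjustment over all of them. The number of arrays limits the precision. The group comparisons and timing contrast were first tested on simulated data. There the planted leads were larger than those reported here, so that leads of the reported size were not tried. Genes and lists were chosen with earlier results of these data known. All measured members were named, and from each other list up to 4 genes with the largest change called in both strains, the 3 genes most like each member, and Lin28a. Alternatives covered scaling, probe sets tested, dim probe sets, eBayes settings, samples fitted, thresholds, array 2b, the replicate block, cell cycle lists and omission of each replicate. Equal replicate numbers were not taken as pairs. Sequences and positions are from RefSeq (GRCm38.p6). Figures used matplotlib 3.10.9 in Python 3.11.15.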

Additional observations from a re-analysis of the deposited data

Results flagged for a closer look

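The change of the let-7f-1 locus (Mirlet7f-1) from E15.5 differed between the strains, by limma's test of the difference, at E18.5 (B6 minus A/J, log2 -1.46, adjusted p = 0.0261) and at PN0 (log2 -1.46, adjusted p = 0.0235). At PN0 its values were 4.87, 5.42 and 5.67 in B6 lungs and 6.14, 6.90 and 6.27 in A/J lungs, and at E15.5 they were 6.26, 6.18 and 6.21 in B6 lungs and 4.85, 6.69 and 6.07 in A/J lungs. At E18.5 they were 5.81, 6.015 and 6.33 in B6 lungs and 6.97, 7.20 and 7.32 in A/J lungs. The lowest A/J value at E15.5, 4.85, was that of replicate 1, which also had the high liver markers. Without it the differences were -0.95 at E18.5 (adjusted p = 0.0784) and -0.95 at PN0 (adjusted p = 0.0902).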

How the results depend on the processing

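The number of genes that changed from E15.5 to PN0 (5 of 6 in B6, 6 of 6 in A/J) stayed at 5 in B6 and between 4 and 6 in A/J over 12 alternatives, and 3 genes passed the F test in all of them. No called value changed its sign. Leaving out dim probe sets removes Lin28b. At an adjusted p under 0.01, 2 in place of 4 strain differences passed, 4 in place of 7 values ahead of the cell cycle genes in A/J, and 0 in place of 1 in B6. With a fold of 1.5 added, 6 in place of 17 steps passed, 1 strain difference, and 0 timing values in either strain. The B6 timing count was 0 with all probe sets tested, with array 2b left out, with the replication genes alone, with E18.5 as the end of the fall and without the replicates with high liver genes (an alternative chosen after seeing the data). It was 2 with arrays centred, with array 2b as a replicate of its own and with the mean of a gene's probe sets, and 4 with dim probe sets left out, with only the comparison's samples and with the mitosis genes alone. The A/J timing count was 3 with the replication genes alone and 2 with E18.5 as the end of the fall. On the day before birth 2 genes passed with arrays centred, with dim probe sets left out, with trend and robust eBayes and with array 2b separate, and 0 with the mean of a gene's probe sets. One difference in change between strains passed with dim probe sets left out, and 1 with trend and robust eBayes. Causes were not tested. Leaving out 1 replicate in turn gave 13 to 19 steps, 3 to 5 strain differences, 1 to 2 on the day before birth, 0 to 2 differences in change, and 0 to 2 timing values in B6 and 5 to 7 in A/J.

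With the replicate number as a block, the B6 timing count was 0 in place of 1 and no other count of calls moved by over 1.5 times. Same-numbered replicates did not deviate together (mean r = -0.00997, with 30 of 198 pairs over 0.1, and 14 of 36 replicates closest to their own number).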

Other observations

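Array 2b of B6 at E18.5 correlated alike with arrays 1, 2 and 3 (r = 0.993 each), so that its assignment to replicate 2 is not established. The 2 arrays differed most in Igf2bp3, at 8.54 on array 2 and 8.01 on array 2b. For Lin28b they gave 4.70 and 4.98, and for Mycn 6.99 and 7.03.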
